A study of Mus musculus with 2 samples.

Results

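A set of 8 genes of the Wnt pathway was followed in aortic smooth muscle cells (SMCs) that had kept or lost Tsc1: 7 secreted proteins grouped as Wnt antagonists (Wif1, Sfrp1, Sfrp2, Sfrp4, Frzb, Dkk2 and Dkk3) and Axin2, which is not secreted but acts inside the cell. They are 8 of the 28000 features in each matrix, and they were chosen by their levels in these same cells, by library, contractile state and Dlx expression, so the values below are descriptions. The control library came from Myh11-CreERT2.mT/mG (Tsc1+/+) mice and the KO library from Tsc1fl/fl.Myh11-CreERT2.mT/mG (Tsc1-/-) mice, all male, of strain C57BL/6, given tamoxifen at 1.5 weeks of age, with thoracic aortas taken at 24 weeks. Mice of both genotypes thus carried the inducible recombinase driven from the SMC gene Myh11, and the mT/mG reporter, which turns on eGFP in a cell once the recombinase has acted. Sorted eGFP-positive cells were profiled as 1 droplet library per genotype, and the animals behind each library were not given in the sources used here. With 1 library per genotype no test was possible: every interval below is a 95% interval for counting error, and differences between animals or preparations are not covered by it.

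Wnt proteins signal through Frizzled receptors and the co-receptors Lrp5 and Lrp6 to stabilise beta-catenin. Wif1 and the secreted Frizzled-related proteins (Sfrp1, Sfrp2, Sfrp4 and Frzb, also called Sfrp3) can bind Wnt proteins outside the cell, whereas Dickkopf proteins such as Dkk2 bind the co-receptors, and Dkk3 is a divergent Dickkopf whose place in Wnt signaling is less settled. Axin2 is a scaffold of the complex that degrades beta-catenin and is itself a widely used transcriptional target of the pathway. In arteries, Wnt signaling has been studied in SMC growth and in calcification.

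Cells were used when they had at least 5 eGFP UMIs (unique molecular identifiers, which count each captured molecule once), at least 500 genes, and no more than 10% mitochondrial UMIs. This kept 1692 of 2095 control cells with 20011501 UMIs and 1919 of 2097 KO cells with 30778165 UMIs. Median depth per cell was 11665 UMIs (control) and 15012 UMIs (KO), and the median mitochondrial share was 4.77% and 5.73%. The 4 SMC markers Myh11, Acta2, Tagln and Cnn1 were present in both libraries, at a summed 35937 and 17443 CPM (a gene's UMIs scaled to a total of 1000000). The 6 macrophage and the 5 lymphocyte markers summed to 14.6 and 3.05 CPM in control cells and to 13.6 and 1.56 CPM in KO cells. The 8 fibroblast markers summed to 113 and 775 CPM, with 2 of 8 and 4 of 8 at 10 CPM or more. Among them Dcn stood at 22.9 and 352 CPM, while Pi16 and Scara5 stood at 0.0325 and 0.13 CPM in KO cells. Their part in the results below was not tested. Tsc1 had 191 UMIs (9.54 CPM) in control cells and 263 (8.55 CPM) in KO cells, and since a captured tag can lie outside the deleted part, this does not check the labels. There were 16 barcodes found in both libraries, 4 of them among kept control cells and 5 among kept KO cells. Without those cells the KO to control ratio of each of the 7 members with a ratio stayed within its interval.

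Over all cells Wif1 was far lower in the KO library, Dkk3 and Frzb were several times higher, and Sfrp2 differed by less than 1.5-fold. Of the 8 members, 4 reached 10 CPM in at least 1 library, and 2 of these passed 1.5-fold upward in KO cells and 1 passed it downward. Over all 8113 features at 10 CPM, 13.2% were higher and 11.4% lower by the same rule. The members were picked with this contrast known, so nothing is read from their count. No scaling tried moved the median log2 ratio over all features by more than 0.08 from its value of -0.0011.

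**Figure D1:**
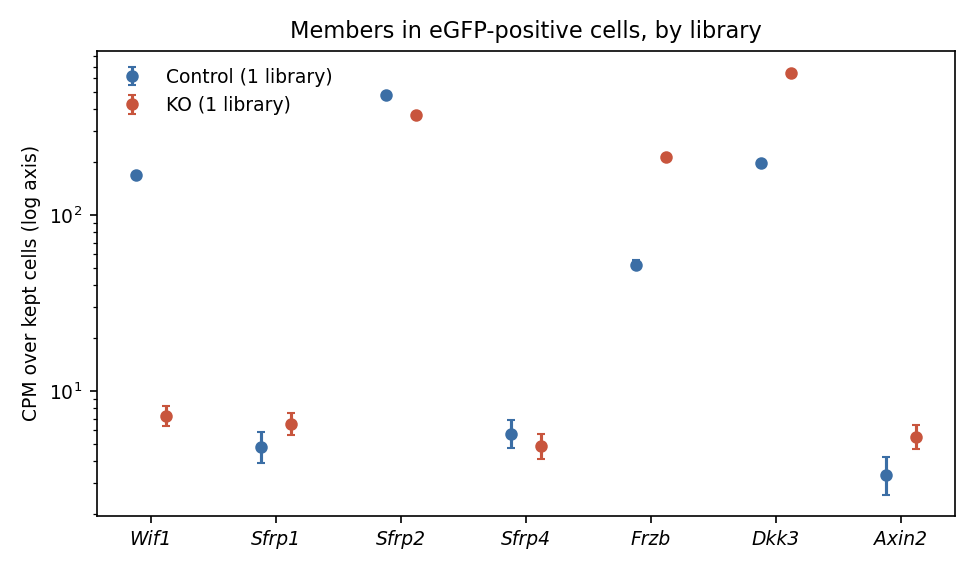
Level of 7 members over all kept eGFP-positive cells of the control (blue, 1692 cells) and the KO library (red, 1919 cells), in CPM on a log axis; bars are 95% Poisson intervals and are often smaller than the points. Wif1 is the 1 member far lower in the KO library, and Frzb and Dkk3 are the 2 that are clearly higher; Dkk2, with 1 control UMI, is not drawn.

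Wif1 (ENSMUSG00000020218, chromosome 10, 121033960 to 121100650, mm10, plus strand) encodes Wnt inhibitory factor 1. It had 3387 UMIs, 169 CPM (164 to 175), in control cells and 223 UMIs, 7.25 CPM (6.33 to 8.26), in KO cells. The KO library was thus 23.4 times lower (20.4 to 26.9). Leaving out the 1% of cells with the most Wif1 in each library gave a ratio of 0.0345 in place of 0.0428. Because Wif1 is the member that sets the libraries apart most, the sequence before its start is shown, up to the earlier of the start sites of RefSeq and GENCODE (RefSeq promoter table, GRCm38.p6, chr10:121033754-121033959, plus strand, 5' to 3'):
Wif1: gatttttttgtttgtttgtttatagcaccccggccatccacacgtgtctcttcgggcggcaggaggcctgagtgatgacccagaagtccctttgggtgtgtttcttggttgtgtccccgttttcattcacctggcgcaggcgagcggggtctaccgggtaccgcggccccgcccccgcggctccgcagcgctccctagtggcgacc
The full 250 bases before the RefSeq start were searched on both strands for CTTTGA, the core letters bound by TCF/LEF factors, and for TAATTA, a core bound by many homeodomain proteins, and held 0 matches of either. Of the 32851 windows of the same length in that table, 13.8% held CTTTGA and 4.84% held TAATTA. No match says only that these letters are not in this window.

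Among single cells, Wif1 was found broadly in control cells and rarely in KO cells. A Wif1 UMI was counted in 981 of 1692 control cells, 58.0% (55.6 to 60.3), and in 160 of 1919 KO cells, 8.34% (7.14 to 9.67). After each cell was thinned to 5000 UMIs, which left out 90 control and 17 KO cells, the shares were 42.3% and 3.36%. After thinning, 20.3% of control cells but 0.263% of KO cells had 2 or more. The largest count in any cell was 27 in control cells and 5 in KO cells. In the 330 control cells with no eGFP UMI, at a median depth of 3750 UMIs, Wif1 was seen in 0. Taking 3 cells as the floor, this allows a share of cells with a UMI of up to 0.909%, which does not limit the share expressing the gene. Those cells had macrophage markers at a summed 15104 CPM. Xist was counted in 296 of them and the Y-linked gene Ddx3y in 0, although the labels give male mice, and the origin of these cells was not tested.

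Dkk3 (ENSMUSG00000030772, chromosome 7, 112116017 to 112159057, minus strand) went the other way. It had 198 CPM (191 to 204) in control cells and 645 CPM (636 to 654) in KO cells, a ratio of 3.26 (3.15 to 3.38). Nearly all KO cells carried it. A Dkk3 UMI was found in 80.5% (78.5 to 82.4) of control cells and 98.9% (98.3 to 99.3) of KO cells, and after thinning in 59.3% and 89.96%. The median cell had 2 and 8 UMIs unthinned, and 1 and 3 UMIs after thinning. The 10% of cells with the most Dkk3 held 30.3% of its control UMIs and 27.2% of its KO UMIs. Counts per cell differed between libraries, so these shares do not compare its spread over cells. It was in 0 of the 330 control cells with no eGFP UMI.

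Frzb (ENSMUSG00000027004, chromosome 2, 80411970 to 80447625, minus strand) had 52.4 CPM (49.3 to 55.7) in control cells and 216 CPM (211 to 221) in KO cells. The ratio was 4.12 (3.86 to 4.40). A UMI was found in 29.0% (26.8 to 31.2) and 72.3% (70.2 to 74.3) of cells, and in 18.4% and 48.0% after thinning. It was in 0 of the 330 eGFP-negative control cells.

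Sfrp2 (ENSMUSG00000027996, chromosome 3, 83766321 to 83774316, plus strand) had 483 CPM (473 to 492) in control cells and 372 CPM (366 to 379) in KO cells, a ratio of 0.772 (0.751 to 0.793) that did not pass 1.5-fold. The shares of cells lay further apart, at 75.4% (73.2 to 77.4) and 55.9% (53.7 to 58.2), or 59.6% and 38.7% after thinning. In the KO library the gene was concentrated in few cells: the top 10% of cells held 69.8% of its UMIs against 52.1% in the control, and the largest count in a cell was 369 against 99. In eGFP-negative control cells it was found in 1 of 330, or 0.303%. An annotated antisense gene, Gm26771, overlaps Sfrp2 and had 257 and 220 UMIs of its own. Strand use in the counting was not given in the sources used here.

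**Figure D2:**
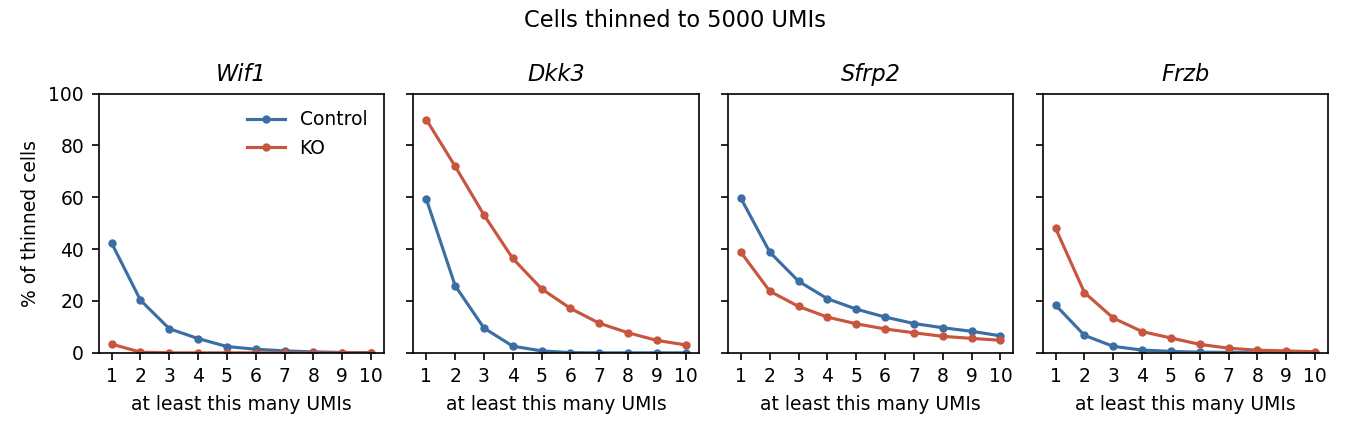
Share of cells (y axis, %) with at least the number of UMIs on the x axis, after thinning to 5000 UMIs per cell, in 1602 control (blue) and 1902 KO cells (red). The KO curve is near 0 for Wif1 and above the control for Dkk3 and Frzb, and for Sfrp2 the control curve lies above the KO curve.

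The remaining members were rare. Sfrp1 (ENSMUSG00000031548, chromosome 8, 23411502 to 23449632) had 97 and 201 UMIs, 4.85 and 6.53 CPM, a ratio of 1.35 (1.05 to 1.73). Sfrp4 (ENSMUSG00000021319, chromosome 13, 19623104 to 19632994) had 115 and 151 UMIs, 5.75 and 4.91 CPM, a ratio of 0.854 (0.665 to 1.10). Dkk2 (ENSMUSG00000028031, chromosome 3, 132085292 to 132180304) had 1 control UMI and 0 KO UMIs, which with a floor of 3 counts allows up to 0.0975 CPM there, and no ratio is given. Axin2 (ENSMUSG00000000142, chromosome 11, 108920349 to 108950783) had 67 and 170 UMIs, 3.35 and 5.52 CPM, a ratio of 1.65 (1.24 to 2.22) at levels under the 10 CPM minimum. Its antisense neighbour Gm11670 had 0 UMIs in either library. After thinning, 1.69% of control and 3.10% of KO cells had an Axin2 UMI.

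The number of secreted members seen per cell hardly differed, while their identity did. In thinned cells a mean of 1.84 of the 7 secreted members had a UMI per control cell and 1.85 per KO cell, and 9.36% and 4.31% of cells had none. In the control, 44.2% of cells with Sfrp2 and 39.5% of cells without it had Wif1. Frzb was found more often with Sfrp2 in each library: in 23.5% of cells with Sfrp2 against 10.96% without it in the control, and in 63.0% against 38.5% in the KO library. Wif1 was in 37.6% of Frzb-positive and 43.4% of Frzb-negative control cells. These are shares of cells within 1 library each.

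Contractile state was measured as the share of a cell's UMIs that came from 14 contractile genes (Acta2, Tagln, Myh11 and others). It had a median of 5.11% in control cells and 2.24% in KO cells. The KO cells were divided into 3 equal ranges at 1.37% and 3.14%, and the same limits were applied to the control. These are ranges of a score and not cell types: 101 and 197 KO cells lay within 10% of the lower and upper limit, and 2 and 139 control cells. The control had 2 cells in the low range, 192 in the intermediate and 1498 in the high range, against 640, 639 and 640 KO cells, so the low range was not compared between libraries. Within a range control cells still had the higher median share, 2.58% against 2.24% in the intermediate and 5.36% against 4.38% in the high range.

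Within the control, Wif1 and the pair Sfrp2 and Frzb ran in opposite directions along this share, and Dkk3 lay level within its counting error. Wif1 had 177 CPM in the high and 90.9 CPM in the intermediate range, 1.95 times lower (1.66 to 2.30). Sfrp2 had 392 CPM in the high and 1420 CPM in the intermediate range, a ratio of 3.62 (3.46 to 3.79). For Frzb the levels were 40.6 and 173 CPM, a ratio of 4.27 (3.73 to 4.89). Sfrp4, at 4.39 and 19.8 CPM, was 4.50 times higher in the intermediate range (2.94 to 6.78), and it reached 10 CPM only there. Dkk3 had 199 and 186 CPM. Of all features at 10 CPM, 15.1% were higher and 3.85% lower in the intermediate range. Fibroblast and pericyte markers moved with these members in the control. From the high to the intermediate range, fibroblast markers summed to 85.7 and 343 CPM (2 of 8 and 6 of 8 at 10 CPM) and pericyte markers to 896 and 2128 CPM (4 of 4 in both). All 4 pericyte markers also reached 10 CPM over the kept cells of each library, so their sums are not read as a share of other cells. The 5 chondrocyte markers moved as well, summing to 72.3 and 159 CPM (2 of 5 at 10 CPM in both). The part of any of these lists was not tested. In bins 1 point wide, control Wif1 was lowest at a share of 2 to 3%, with 92.7 CPM (77.0 to 111), and highest at 7 to 8%, with 226 CPM (205 to 248). Control Sfrp2 went from 1960 CPM at 1 to 2% down to 154 CPM at 8 to 9%.

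In the KO library Wif1 was low at every contractile share, and the other abundant members were highest where contractile genes were lowest. Wif1 had 7.47 CPM in the low, 7.44 CPM in the intermediate and 6.83 CPM in the high range, and the intervals overlap. Sfrp2 had 746, 277 and 69.7 CPM in the same order, 10.7 times higher in the low than in the high range (9.93 to 11.6). Frzb had 390, 172 and 75.4 CPM, 5.17 times higher in the low range (4.79 to 5.59). Dkk3 had 825, 641 and 461 CPM, a ratio of 1.79 (1.73 to 1.85). Sfrp4 had 100 UMIs in the low and 21 in the high range, 9.23 against 2.02 CPM. Of all features at 10 CPM, 12.2% were higher and 8.77% lower in the low than in the high range, and 4.95% and 1.81% in the intermediate than in the high range. The fibroblast markers moved along with these members, at a summed 1719 CPM in the low and 198 CPM in the high range, with 5 of 8 and 3 of 8 at 10 CPM or more. Dcn and Lum carried most of that sum, at 879 and 628 CPM in the low and 40.0 and 29.2 CPM in the high range, while Pi16 had 1 UMI in the low range and 0 in the high. Chondrocyte markers summed to 153 CPM in the low and 71.9 CPM in the high range, and Schwann cell markers to 38.4 and 3.66 CPM. Whether any of these markers bear on the members was not tested.

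**Figure D3:**
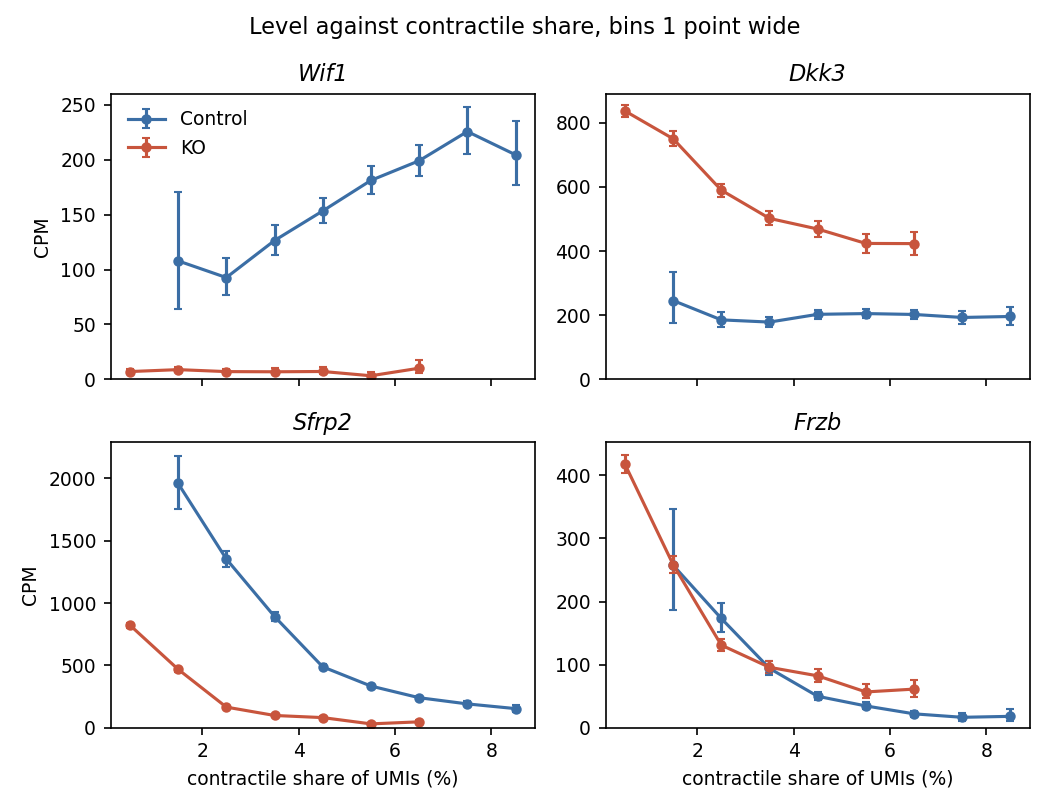
Level (y axis, CPM) of Wif1, Dkk3, Sfrp2 and Frzb against the contractile share of UMIs (x axis, %) in bins 1 point wide with at least 20 cells, for the control (blue) and the KO library (red); bars are 95% Poisson intervals. Control Wif1 is higher at high shares while KO Wif1 stays between 3.22 and 10.1 CPM, and the Sfrp2 curves are far apart. The Frzb curves, drawn over all kept cells, lie close together between 1 and 4%. Without the Dlx set defined below, Frzb had 132 CPM in control and 120 CPM in KO cells at 2 to 3%. At 3 to 4% it then had 35.1 and 90.1 CPM.

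Set side by side at like contractile share, the 4 abundant members gave 4 different pictures. Wif1 was lower in the KO library in both ranges, 12.2 times (9.19 to 16.4) in the intermediate and 25.9 times (20.5 to 33.3) in the high range. With limits at the tertiles of both libraries pooled, the ratio in the intermediate range was 0.0474 in place of 0.0818. Sfrp2, which differed by less than 1.5-fold over all cells, was 5.12 times lower (4.84 to 5.41) in the intermediate range, with 1420 CPM in control and 277 CPM in KO cells. In the high range it was 5.62 times lower (5.21 to 6.08), with 392 against 69.7 CPM. Frzb, 4.12 times higher over all cells, had 173 and 172 CPM in the intermediate range, a ratio of 0.992 (0.878 to 1.12). That range mixes cells unlike in Dlx expression, in proportions that differ between libraries, and Frzb is split by it below. In the high range it had 40.6 and 75.4 CPM, a ratio of 1.86 (1.68 to 2.06). Dkk3 was higher in both, by 3.45 times (3.09 to 3.87) and 2.32 times (2.22 to 2.42). Over all features, 11.4% were higher and 18.5% lower in the intermediate range, and 9.46% and 10.2% in the high range. Pericyte markers were lower beside Sfrp2, at a summed 2128 CPM in control and 533 CPM in KO cells of the intermediate range and at 896 and 408 CPM in the high range. Fibroblast markers summed to 343 and 331 CPM in the intermediate range and to 85.7 and 198 CPM in the high range. The part of either list was not tested.

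The second division was by the homeobox genes Dlx5, Dlx6 and Msx2, transcription factors of the neural crest and skeleton. Cells with at least 2 UMIs of the 3 genes together are called the Dlx set below. It held 256 control cells (15.1%) and 113 KO cells (5.89%). The defining genes differed between the control and KO sets. Dlx5 had 169 and 139 CPM, Dlx6 102 and 55.8 CPM, and Msx2 108 and 20.5 CPM. An Msx2 UMI was found in 162 of 256 control and 32 of 113 KO cells of the set. Cells of the Dlx set had a lower contractile share than the rest, with a median of 3.59% against 5.36% in control cells and 0.872% against 2.36% in KO cells. Their median depth was 10352.5 against 11983.5 UMIs (control) and 16072 against 14909 UMIs (KO).

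Sfrp2, Frzb and Sfrp4 were higher in the Dlx set of each library. Sfrp2 had 1601 CPM in the Dlx set and 298 CPM in the rest of the control, a ratio of 5.37 (5.16 to 5.59). KO cells had it at 1566 and 291 CPM, a ratio of 5.37 (5.15 to 5.60). Its levels thus lay close together between libraries within each set, with KO to control ratios of 0.978 (0.934 to 1.02) in the Dlx set and 0.978 (0.944 to 1.01) in the rest. These are averages over unlike contractile shares. In the KO Dlx set 1 cell held 369 of the 3059 Sfrp2 UMIs, and the ratio without that cell was not computed. The top 10% of cells held 46.1% of Sfrp2 UMIs in the KO Dlx set and 31.6% in the control Dlx set. Of the Dlx set, 78 of 113 KO cells but 1 of 256 control cells lay in the low range, and like ranges are compared below. Over all features 15.2% were higher and 19% lower in KO cells within the Dlx set, and 14.1% and 10.6% within the rest. Frzb had 192 against 29.4 CPM in the control, a ratio of 6.54 (5.78 to 7.39), and 701 against 183 CPM in KO cells, a ratio of 3.83 (3.602 to 4.06). Sfrp4 had 65 UMIs in the control Dlx set and 50 in the rest, 23.0 against 2.91 CPM, a ratio of 7.89 (5.37 to 11.6). KO cells had it at 14.8 against 4.23 CPM, a ratio of 3.51 (2.25 to 5.29). In both libraries Sfrp4 reached 10 CPM only in the Dlx set, where it was higher. Of all features at 10 CPM, 13.1% were higher and 3.97% lower in the control Dlx set, and 8.08% and 4.43% in that of the KO library. Markers of pericytes moved with the set, summing to 3092 against 661 CPM in control cells and to 589 against 472 CPM in KO cells. Fibroblast markers summed to 206 against 97.7 CPM and to 940 against 764 CPM, with Lum at 0 and Pi16 at 22.6 CPM in the control Dlx set. Within ranges their sum was lower in the Dlx set in the control intermediate (245 against 431 CPM) and KO low range (1135 against 1805 CPM). It was higher in the control high (190 against 72.9 CPM) and KO intermediate range (470 against 322 CPM). Chondrocyte markers summed to 153 against 68.4 CPM in control cells and to 168 against 109 CPM in KO cells. The part of these lists in the differences was not tested.

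Since Sfrp2 was the most abundant of the 3 genes in the Dlx set, the sequence before its start is shown (RefSeq promoter table, GRCm38.p6, chr3:83766071-83766320, plus strand, 5' to 3'):
Sfrp2: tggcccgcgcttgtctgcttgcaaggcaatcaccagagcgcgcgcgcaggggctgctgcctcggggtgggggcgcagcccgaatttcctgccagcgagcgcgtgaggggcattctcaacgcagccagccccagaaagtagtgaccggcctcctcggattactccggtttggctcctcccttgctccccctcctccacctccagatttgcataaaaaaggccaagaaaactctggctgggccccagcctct
This window held 0 matches to TAATTA or CTTTGA. The 250 bases before the RefSeq start of Frzb held 0 of the homeodomain core and 1 of CTTTGA, on the opposite strand 95 bases before that start, although GENCODE places the start of Frzb further upstream.

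Wif1 and Dkk3 behaved differently from that group. Wif1 had 140 CPM in the Dlx set and 174 CPM in the rest of the control, a ratio of 0.806 (0.724 to 0.895). In the KO library there were 12 UMIs in the Dlx set, and the ratio of 0.839 (0.427 to 1.50) does not give a direction. Dkk3 had 181 against 200 CPM in the control, a ratio of 0.903 (0.821 to 0.991), but 1129 against 612 CPM in KO cells, a ratio of 1.84 (1.76 to 1.93). Sfrp1 was rare in the Dlx set, with 3 control UMIs (1.06 against 5.47 CPM) and 4 KO UMIs (2.05 against 6.83 CPM). Axin2 had 18 UMIs, 6.36 against 2.85 CPM, in the control, a ratio of 2.23 (1.22 to 3.90). In the KO library it had 22 UMIs, 11.3 against 5.13 CPM, a ratio of 2.19 (1.33 to 3.45).

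**Figure D4:**
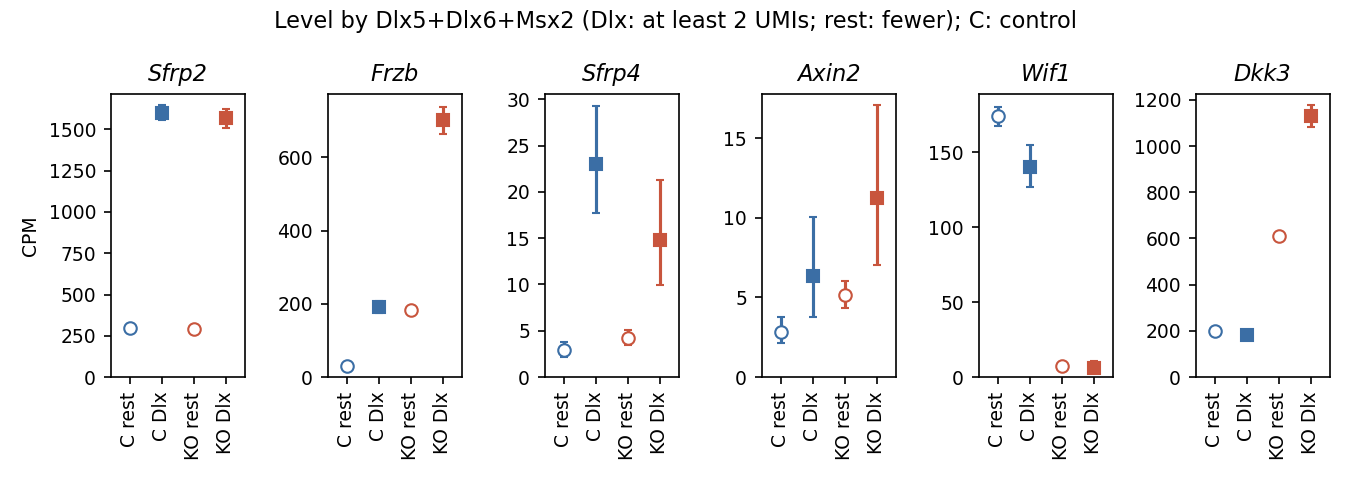
Level (y axis, CPM, each panel with its own scale from 0) of 6 members in cells of the Dlx set (filled squares) and in the rest (open circles) of the control (C, blue) and the KO library (red); bars are 95% Poisson intervals. Sfrp2, Frzb, Sfrp4 and Axin2 are higher in the Dlx set of both libraries, though Axin2 rests on 18 control and 22 KO UMIs there. Within single contractile ranges, not drawn, the Axin2 intervals span 1. Wif1 is low in both KO sets, and Dkk3 is at 1129 against 612 CPM in KO cells and at 181 against 200 CPM in the control.

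The contractile share and the Dlx set overlap, so each was also read within the other. Among control cells of the intermediate range, the Dlx set (83 cells) had Sfrp2 at 1983 CPM and the rest (109 cells) at 914 CPM, a ratio of 2.17 (1.996 to 2.36). For Frzb that ratio was 1.84 (1.45 to 2.33). In the high range (172 and 1326 cells) the ratios were 5.52 (5.26 to 5.79) for Sfrp2 and 7.41 (6.39 to 8.58) for Frzb. The ratios for control Wif1 were 1.10 (0.799 to 1.52) in the intermediate and 0.892 (0.792 to 1.002) in the high range, so neither interval gave a direction. Over all features 18.7% were higher and 9.41% lower in the Dlx set of the intermediate range, and 12.3% and 4.02% in that of the high range. In the KO library the low range held 78 cells of the Dlx set and 562 others, with ratios of 3.04 (2.896 to 3.18) for Sfrp2 and 2.41 (2.24 to 2.58) for Frzb, where 9.5% of all features were higher and 5.02% lower. The KO intermediate range held 32 and 607 cells, with Sfrp2 at 1028 against 234 CPM and Frzb at 484 against 154 CPM, where 14.4% of all features were higher and 9.8% lower. The Dlx set was thus 83 of 192 control and 32 of 639 KO cells of that range. Within it, Sfrp2 had 1983 CPM in control and 1028 CPM in KO cells, and Frzb had 228 and 484 CPM. Of the 533 Sfrp2 UMIs in those 32 KO cells, 1 cell held 180, and the top 10% of cells held 52.3%. In the rest of that range, Frzb had 124 and 154 CPM. Conversely, with the Dlx set left out, KO Sfrp2 was 3.90 times lower (3.5996 to 4.23) in the intermediate and 3.91 times lower (3.61 to 4.24) in the high range, while over all contractile shares the ratio was 0.978. Frzb without the Dlx set was 6.23 times higher (5.69 to 6.84) over all cells, 1.24 times (1.03 to 1.51) in the intermediate range and 3.11 times (2.75 to 3.52) in the high range. Over all features without the Dlx set, 13.6% were higher and 16.7% lower in the intermediate range, and 10.3% and 9.56% in the high range. Sfrp4 without it had 2.91 CPM in control cells and 4.23 CPM in KO cells, a ratio of 1.45 (1.04 to 2.06), whereas its interval over all cells spanned 1. For the Dlx set against the rest, control Sfrp4 had ratios of 2.14 (1.02 to 4.72) in the intermediate and 9.05 (5.70 to 14.4) in the high range. Its KO ratios were 2.39 (1.47 to 3.78) in the low and 1.93 (0.376 to 6.29) in the intermediate range. The last of these rests on 3 UMIs in the Dlx set.

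Over 9 strata of library, contractile range and Dlx set with at least 20 cells each, the genes whose log2(CPM + 1) ran most like each abundant member were named by rank among 7783 genes. For Wif1 these were Pdlim4, Wdr89 and Bdh1 (Pearson r 0.985, 0.985 and 0.983), and for Dkk3 they were Slc48a1, Adamtsl5 and Lmo2 (0.989, 0.989 and 0.986). For Sfrp2 they were Efna5, Dnajb12 and Adamts2 (0.980, 0.973 and 0.972), and for Frzb Piezo2, Cxcl12 and Klhdc2 (0.995, 0.986 and 0.983). Among members, Frzb ran with Dkk3 at 0.65 and with Sfrp2 at 0.64, and Wif1 against Dkk3 at -0.92. The strata of a library share its cells' preparation and depth, so these values describe 2 libraries and carry no test.

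Other Wnt pathway genes past 1.5-fold lay in both directions. Of 78 listed genes, 34 reached 10 CPM, of which 6 (17.6%) were higher and 8 (23.5%) lower in KO cells, beside 13.2% and 11.4% of all features. The median log2 ratio of the 34 was 0.11. Fzd6, Nkd2 and Ccnd1 reached 10 CPM only in the KO library, where they were higher. Fzd4 and Lgr4 reached it only in the control, where they were higher. The counts are therefore given as descriptions, and some genes stand in more than 1 of the groups below. Among ligands and their secretion factors, 2 of 21 genes reached 10 CPM, and Wnt16, a ligand, had 26.2 and 67.0 CPM, a ratio of 2.56 (2.32 to 2.82). Of 18 receptor genes 12 were measured at that level, 4 lower and 1 higher, the latter being Fzd6, at 10 CPM only in KO cells. Fzd4 was 2.21 times lower, Fzd8 1.80 times and Fzd2 1.78 times, while Fzd6 had 7.10 and 11.8 CPM. Of 9 genes of the R-spondin, Lgr and Znrf3/Rnf43 group 3 were measured, and Lgr4, a receptor for R-spondins, was 1.61 times lower. Of 10 other antagonists 2 reached 10 CPM, and 4 had no UMI in either library. Sost, the Lrp-binding antagonist sclerostin, had 2071 CPM in control cells and 707 CPM in KO cells, 2.93 times lower. Igfbp4, an IGF-binding protein also described as a Wnt antagonist, had 148 and 339 CPM.

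Inside the cell, 10 of 13 genes reached 10 CPM, with 1 higher and 0 lower. That gene was Ctnnb1, which encodes beta-catenin, with 263 and 626 CPM, a ratio of 2.38 (2.31 to 2.46). Of 14 feedback genes and targets 5 were measured, with 2 higher and 2 lower, and both of the higher genes reached 10 CPM only in KO cells. The decoy receptor gene Bambi was 4.57 times lower and Nkd1, an inhibitor of Dishevelled, 2.40 times lower. Its relative Nkd2 had 2.10 and 23.7 CPM, a ratio of 11.3 (8.27 to 15.8), and Ccnd1 (cyclin D1) had 4 control UMIs and 27.9 CPM in KO cells, a ratio of 139 (54.3 to 513). Axin2 is given above and was below the minimum.

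**Figure D5:**
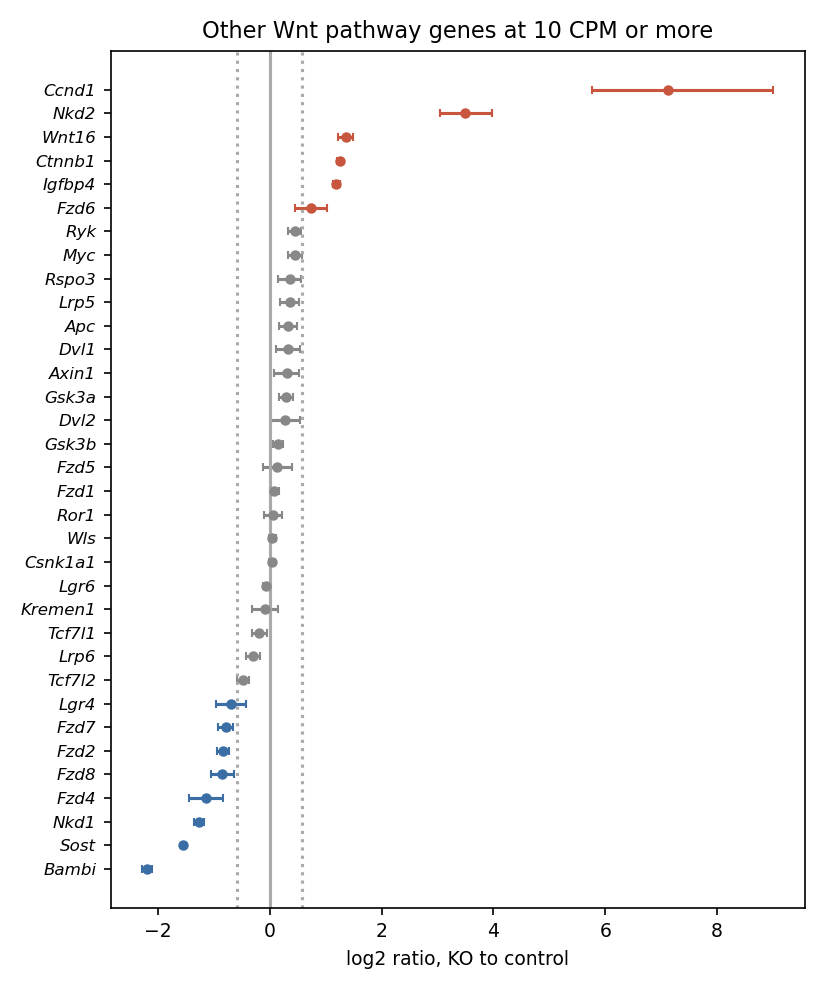
Log2 ratio of KO to control CPM (x axis) for the 34 genes of the Wnt list at 10 CPM or more, members not included; bars are 95% counting intervals, dotted lines mark 1.5-fold, red is higher, blue lower and grey neither. Ccnd1 and Nkd2 lie farthest to the right and Bambi, Sost and Nkd1 farthest to the left.

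The authors' deposited table of means per 10000 counts in their own clusters offered a second view of the same libraries. In the authors' deposited table, control clusters 0, 1 and 4 had Wif1 at 1.82, 1.09 and 0.933, with control cluster 2 listed at 0, and KO clusters 0, 1, 2 and 3 had 0.133, 0.264, 0.0548 and 0.0391. The authors' deposited table had Dkk3 at 1.92, 1.87 and 1.72 in those control clusters and between 3.31 and 7.82 in those KO clusters. KO cluster 4 in the authors' deposited table stood apart from these, with Wif1 at 1.75, Dlx5 at 1.92 and Sfrp2 at 48.9. The cells behind that column were not given in the sources used here.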

How the data were processed

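Each library came as a matrix of UMI counts that the authors deposited without normalization. The tools bcl2fastq, Cell Ranger and Seurat 2.0, and build mm10, are named per the submitters' processing notes; the calling of cells was not given in the sources used here. A deposited table of the authors' means per 10000 counts, by cluster and library, was used only where named, and its unit was taken from the values. For each group of cells a gene's summed counts were divided by the group's UMIs to give CPM (Python 3.11.15, scanpy 1.11.5, scipy 1.17.1). Ratios have exact conditional binomial intervals, counts exact Poisson and shares of cells Clopper-Pearson intervals, all at 95% and for counting error only. Called means a ratio of 1.5 or more in either direction at 10 CPM or more in 1 of the groups; the floor for a count of 0 is 3 counts. Thinning drew 5000 UMIs per cell. Doublets were kept; Scrublet marked 9 control and 10 KO cells, which an alternative left out. The ratio script was tested on simulated data. Gene positions came from GENCODE M21 on the same build, and 5 of the 8 members were matched in the RefSeq promoter table. Named genes were all members, of the Wnt list up to 3 past 1.5-fold at either end of each group, and for each abundant member the 3 genes most like it. The members and lists were chosen with earlier results of these data known.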

Additional observations from a re-analysis of the deposited data

Results flagged for a closer look

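Dkk3 in the Dlx set lay below the rest in the control, at a ratio of 0.903, and above it in the KO library, at 1.84; the intervals lie on opposite sides of 1, and the difference between the libraries was not tested. Within contractile ranges the control ratios were 1.10 (0.877 to 1.37) in the intermediate (83 cells of the set) and 0.865 (0.772 to 0.967) in the high range (172 cells). The KO ratios were 1.49 (1.41 to 1.57) in the low (78 cells) and 1.74 (1.59 to 1.90) in the intermediate range (32 cells).

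Members were also counted in cells left out of every comparison above, those with 1 to 4 eGFP UMIs. The 20 such control cells held 11 Wif1, 113 Sfrp2, 15 Frzb and 9 Dkk3 UMIs. The 5 such KO cells held 4 Sfrp1, 40 Sfrp2, 16 Frzb and 9 Dkk3 UMIs. SMC markers summed to 17385 CPM in these control cells, and macrophage markers to 7308 CPM. In the 5 KO cells, SMC markers summed to 2704 CPM, fibroblast markers to 2304 CPM and macrophage markers to 0.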

How the results depend on the processing

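No paired analysis was possible because each genotype has 1 library and the labels give no replicate numbers. The count of members higher in the KO library was 2 or 3 and that of members lower was 1 under all 14 alternatives tried. No result with a called direction turned. Ratios of KO to control over all cells that left their counting interval were, for Wif1, 0.0345 without the 1% of cells with the most UMIs of the gene. For Dkk3 they were 3.44 with the 50 most abundant features left out of the total, 3.40 without the 5% of cells with the most UMIs and 3.06 without the Dlx set. For Frzb they were 3.39 as a mean of per-cell CPM, 4.46 at 20 eGFP UMIs, 3.59 after thinning and 6.23 without the Dlx set. For Sfrp2, not called in any of them, they were 0.813 with the 50 features left out, 0.710 as a mean of per-cell CPM, 0.816 at 20 eGFP UMIs, 0.995 at a mitochondrial limit of 5%, 0.739 after thinning, 0.978 without the Dlx set and 0.675 without its top 1% of cells. Sfrp4 gave 1.45 without the Dlx set. Within contractile ranges 4 alternatives were run: pooled limits, the share without Acta2 and Tagln, thinning, and no Dlx set. In the intermediate range they gave 0.0474 to 0.083 for Wif1, 0.135 to 0.262 for Sfrp2, 0.866 to 1.25 for Frzb and 2.71 to 3.47 for Dkk3. In the high range they gave 0.0345 to 0.0452, 0.141 to 0.256, 1.54 to 3.11 and 2.11 to 2.39 in the same order. The settings without the Dlx set, without the top 1%, without shared barcodes, within the low and intermediate ranges, or with the set drawn from thinned counts were chosen after seeing the data. For the Dlx set against the rest of the control, keeping only the low and intermediate ranges gave 2.15 for Sfrp2 and 1.83 for Frzb, and 1.10 for both Wif1 and Dkk3, which were below 1 over all ranges. For Wif1 in the KO Dlx set, thinning gave 0.473, and 1.64 when the set too was drawn from thinned counts. Depth limits Sfrp1, Sfrp4, Dkk2 and Axin2, each under 10 CPM over the kept cells of both libraries.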

Other observations

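Other Wnt genes were compared between the Dlx set and the rest; those named here were chosen after their values were seen. In the control, 5 of 34 listed genes at 10 CPM were higher and 6 lower in the Dlx set, beside 13.1% and 3.97% of all features. In the KO library 5 of 35 were higher and 2 lower, beside 8.08% and 4.43%. In the control, Ror2, Wnt5b and Wnt5a reached 10 CPM only in the Dlx set, where they were higher, and Wnt16 only in the rest. Porcn, counted as higher, also reached it only in the Dlx set, but its ratio of 1.50 (0.973 to 2.26) does not give a direction. In the KO library Wnt5a and Lgr4 reached 10 CPM only in the Dlx set, where they were higher. The counts are therefore given as descriptions. Ror2, a receptor for Wnt5a, had 17.3 CPM in the control Dlx set and 0.524 CPM in the rest, a ratio of 33.0 (16.1 to 76.5). Wnt5b had 34.3 and 5.06 CPM there, a ratio of 6.77 (5.01 to 9.14). Wnt5a was higher in the Dlx set of the control, at a ratio of 2.89 (1.94 to 4.24), and of the KO library, at 1.71 (1.10 to 2.55). Wnt16 was lower in both, at ratios of 0.228 (0.136 to 0.360) and 0.465 (0.356 to 0.597).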
